A study of Mus musculus with 4 samples.

Results

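Single-cell RNA sequencing had been performed on the medial ganglionic eminence (MGE), the proliferative zone of the ventral embryonic forebrain that gives rise to cortical interneurons and to projection neurons of the globus pallidus. The genes described here are the 4 class III POU factors of the mouse, Pou3f1, Pou3f2, Pou3f3 and Pou3f4, out of 32285 genes in the files. They were taken by symbol and followed across progenitor and neuron stages and subtypes in cells with at least 3000 UMIs (unique molecular identifiers, counted in place of reads) and at most 10% mitochondrial UMIs.

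All embryos were at e14.5 on a C57/BL6 ICR mix. Of the 4 libraries, 2 were labelled St18(-/-), called null, and 2 wildtype, called WT. Embryos came from St18 heterozygous parents, and their MGE was pooled by genotype before dissociation, so that each library is a pool of embryos whose number was not stated. The null allele had been made by crossing a conditional St18 allele to a germline Cre driver (E2a-Cre). St18 is a zinc finger factor of the Myt1 family. The question for the Pou3f genes was how their levels were arranged along the path from progenitor to neuron, and whether they differed between null and WT.

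Class III POU factors bind DNA through a POU-specific domain and a POU homeodomain joined by a linker. They recognise octamer-like elements and often act next to Sox factors on the same element. In the developing forebrain Pou3f2 (Brn2) and Pou3f3 (Brn1) are known from neural progenitors and migrating cortical neurons, Pou3f4 (Brn4) from the striatum, hypothalamus and inner ear, and Pou3f1 (Oct6) from Schwann cells and subsets of cortical and striatal neurons.

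All 4 genes were annotated with a single transcript of 1 exon on GRCm38. Pou3f1 (ENSMUSG00000090125) lies on chromosome 4 at 124656807 to 124660655 on the plus strand, and Pou3f2 (ENSMUSG00000095139) on the same chromosome at 22482780 to 22488366 on the minus strand. Pou3f3 (ENSMUSG00000045515) lies on chromosome 1 at 42695768 to 42703176 on the plus strand, and the X-linked Pou3f4 (ENSMUSG00000056854) at 110814280 to 110817207 on the plus strand. The longest stretch that any pair of these transcripts shared was 38 bases, and within the last 1000 bases it was 15 bases, so that few reads from the end of one transcript could be placed on another. Pou3f1 overlapped an exon of the antisense gene Gm2164 over 330 bases. Gm20646 overlapped Pou3f3 on the same strand but shared 0 exon bases with it.

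The start-site windows of Pou3f2, Pou3f3 and Pou3f4 are shown because the levels of Pou3f2 and Pou3f3 went together over cell clusters and those of Pou3f4 did so less closely. Each is 300 bases, from 250 before to 50 after the RefSeq start on build GRCm38.p6, which for Pou3f4 lies downstream of the annotated start given above. They span chr4:22488317-22488616 on the minus strand, chr1:42695518-42695817 on the plus strand and chrX:110814129-110814428 on the plus strand. Capitals mark CCAAT or its reverse complement ATTGG, the box bound by the ubiquitous factor NF-Y.
Pou3f2: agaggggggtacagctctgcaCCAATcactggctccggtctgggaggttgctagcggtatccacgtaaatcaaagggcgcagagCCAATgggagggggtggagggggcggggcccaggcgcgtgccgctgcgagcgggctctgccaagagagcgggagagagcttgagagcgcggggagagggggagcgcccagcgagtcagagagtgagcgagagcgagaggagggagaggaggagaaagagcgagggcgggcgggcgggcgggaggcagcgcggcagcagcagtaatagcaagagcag
Pou3f3: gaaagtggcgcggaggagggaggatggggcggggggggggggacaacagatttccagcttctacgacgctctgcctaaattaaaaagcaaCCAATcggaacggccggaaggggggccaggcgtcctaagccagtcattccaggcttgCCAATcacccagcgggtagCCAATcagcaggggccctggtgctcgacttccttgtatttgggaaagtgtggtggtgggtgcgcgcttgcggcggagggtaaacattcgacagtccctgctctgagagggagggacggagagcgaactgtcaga
Pou3f4: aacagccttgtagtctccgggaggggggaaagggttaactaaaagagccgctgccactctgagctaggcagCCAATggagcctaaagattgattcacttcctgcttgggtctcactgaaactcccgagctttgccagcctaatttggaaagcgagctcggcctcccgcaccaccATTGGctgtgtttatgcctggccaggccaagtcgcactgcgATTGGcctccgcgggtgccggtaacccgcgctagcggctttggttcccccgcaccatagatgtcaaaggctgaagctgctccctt

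The windows held 2, 3 and 3 such boxes, and 37.4% of 32851 windows of the same length held at least 1 on either strand. Their GC content was 67.7%, 60.3% and 57.7%. None of them held TATAAA, found in 13.6% of all windows, or the octamer ATGCAAAT, the element bound by POU factors, found in 1.74%, with both strands searched. No start-site window is shown for Pou3f1.

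The rule and the removal of likely doublets left 6279, 3758, 4348 and 3882 cells in null replicates 1 and 2 and WT replicates 1 and 2, the order of all lists of 4 values here. Clustering without the Pou3f genes gave 7064 progenitors and 10921 neurons, and 153 erythroid-like, 96 microglia-like and 33 oligodendrocyte precursor-like cells were set apart. Median UMIs per cell ran from 6186 to 9352, and 4 to 9 cell barcodes were shared between any 2 libraries. The level of a gene is given as CPM, its UMIs per 1000000 UMIs, both summed over the cells of a class in 1 library. In neurons St18 stood at 25.4, 75.5, 45.4 and 57.1 CPM, so that the library labelled null replicate 2 exceeded both WT libraries. The paper reports that St18 transcript remained detectable in its null samples, at significantly lower levels in neurons than in WT. Within that library St18 was at 95.7 CPM in female and 30.7 CPM in male neurons, against 49.1 and 62.8 CPM in male neurons of the WT libraries and 22.6 and 29.1 CPM in female and male neurons of null replicate 1. Whether every embryo of that pool was null was not tested here, so null over WT compares the libraries as labelled. The differences of the Pou3f genes between genotypes are given with and without that library. Counts of the gene lists are given with it, since leaving it out keeps only 1 null library. Female cells were those with at least 3 UMIs of Xist and no UMI of a Y-linked gene. Male cells were those with at most 1 UMI of Xist and a UMI of a Y-linked gene. Neither WT library held any female cells. Nothing in the labels told whether libraries of 1 genotype came from separate litters, so p-values of null over WT measure the spread between these pools. In comparisons with the library as a term, they measure the spread of the difference over these pools.

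Progenitors and neurons both held all 4 Pou3f genes, and their directions differed. Taken over all neurons, Pou3f1 and Pou3f4 were higher than in progenitors and Pou3f2 was lower. Pou3f3 was lower by a small difference, with CPM about equal in the 2 classes of the WT libraries, and the call was lost without neurons of other origin. Pou3f1 stood at 96.0, 70.9, 80.9 and 95.5 CPM in progenitors and at 184, 185, 209 and 169 CPM in neurons. The ranges of the 2 classes did not overlap, and the gene rose in neurons by 1.07 on the log2 scale (SE 0.075, adjusted p = 3.38e-10, edgeR quasi-likelihood F-test, p-values adjusted by Benjamini-Hochberg over all genes, 4 libraries with the library as a term). Pou3f4 stood at 161, 127, 134 and 150 CPM in progenitors and at 223, 167, 202 and 193 CPM in neurons. Every library was higher in neurons, with no overlap of the ranges, and the log2 difference was 0.40 (SE 0.038, adjusted p = 2.52e-08 by the same edgeR test). Pou3f2 stood at 345, 413, 306 and 336 CPM in progenitors and at 256, 276, 243 and 282 CPM in neurons. Every library was lower in neurons, again without overlap, and the gene fell by 0.46 on the log2 scale (SE 0.036, adjusted p = 1.47e-09 by the same edgeR test).

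Pou3f3 stood at 377, 506, 334 and 325 CPM in progenitors and at 336, 455, 340 and 326 CPM in neurons. These ranges overlapped, and the log2 CPM differences were -0.17 and -0.15 in the null libraries and 0.03 and 0.00 in the WT libraries. With normalization by the trimmed mean of M values (TMM) the gene fell by 0.13 in neurons (SE 0.034, adjusted p = 0.00166 by the same edgeR test). So 4 of the 4 genes passed, 2 in each direction. In the same comparison 80.1% of the 14334 genes tested passed, 40.6% higher in neurons and 39.5% higher in progenitors, and nothing is read from the count. The cells had been divided into these classes by the expression of other genes.

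The Pou3f1 difference depended on which neurons were counted. Its level in MGE interneuron-like and in subpallial neurons, given further on, was lower than in progenitors in 4 of 4 libraries. In the 5445 neurons of unnamed clusters it was at 184, 223, 203 and 154 CPM, higher than in progenitors in 4 of 4. Neuron clusters best matched to the lateral ganglionic eminence (LGE) or the pallium, by at least 3 markers, were then left out. No cluster best matched to the caudal eminence had 3 markers, so none of those was left out. The log2 difference of Pou3f1 became 0.19 (adjusted p = 0.00862 by edgeR, against 1.07). The difference of Pou3f3 was then -0.03 (adjusted p = 0.496). Single neuron classes also went against the direction of Pou3f2 and Pou3f4. Pou3f2 was higher in subpallial neurons, and Pou3f4 lower in LGE-like neurons, than in progenitors in every library. The fold of Pou3f4 depended on clusters between the classes: without mixed and transitional clusters, an alternative chosen after the data were seen, it was 0.16, while Pou3f3 was at -0.21. Library totals in place of TMM gave -0.08 for Pou3f3, and without the library as a term it missed the threshold (adjusted p = 0.389).

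**Figure D1:**
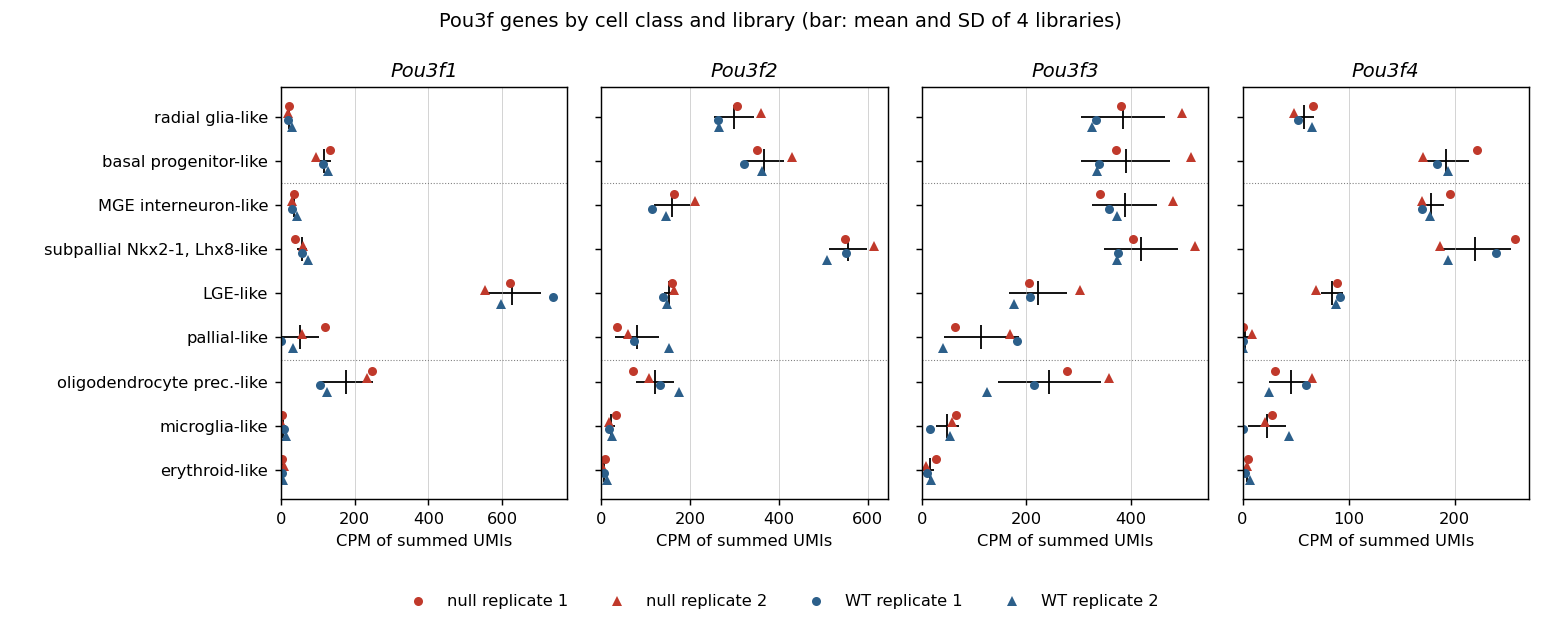
CPM of each Pou3f gene (horizontal axes, linear, starting at 0 and scaled per gene) in 9 cell classes (rows) for each of the 4 libraries (red null, blue WT; circles replicate 1, triangles replicate 2), with the mean and SD of the 4 libraries in black. Pou3f1 is highest in LGE-like neurons, with 554 to 738 CPM, and among named classes Pou3f2 and Pou3f4 are highest on average in the subpallial Nkx2-1 and Lhx8-like neurons; null replicate 2 is the highest library for Pou3f3 in each of the first 5 classes.

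Among progenitors, Pou3f1 and Pou3f4 differed most between radial glia-like and basal progenitor-like cells. Radial glia-like cells, the ventricular stem cells, were named from genes such as Hes5 and Slc1a3, and basal progenitor-like cells, the intermediate cells of the subventricular zone, from genes such as Dlx1, Dlx2 and Gadd45g. Pou3f1 stood at 22.7, 19.1, 18.9 and 29.8 CPM in 1844 radial glia-like cells and at 134, 95.4, 114 and 128 CPM in 4476 basal progenitor-like cells. The groups were far apart, and the gene was higher in basal progenitor-like cells by 2.50 on the log2 scale (SE 0.075, adjusted p = 5.42e-25 by the edgeR F-test, library as a term). Pou3f4 stood at 66.1, 48.4, 52.0 and 65.9 CPM in radial glia-like cells and at 221, 170, 184 and 194 CPM in basal progenitor-like cells. It was higher there by 1.81 (SE 0.055, adjusted p = 6.52e-25 by the same edgeR test), and every library showed the same direction.

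Pou3f2 stood at 305, 360, 263 and 266 CPM in radial glia-like cells and at 351, 430, 322 and 362 CPM in basal progenitor-like cells. Each library was higher in the basal class although the ranges overlapped, and the log2 difference was 0.37 (SE 0.042, adjusted p = 1.82e-09 by the same edgeR test). Pou3f3 stood at 381, 499, 334 and 326 CPM in radial glia-like cells and at 372, 515, 338 and 335 CPM in basal progenitor-like cells. The level was nearly the same in both within each library. Its log2 difference of 0.09 passed the threshold (SE 0.038, adjusted p = 0.0294 by edgeR), but with library totals alone it was 0.02 (adjusted p = 0.671). It also missed the threshold without null replicate 2 (0.10, adjusted p = 0.109), without WT replicate 1 (0.09, adjusted p = 0.110) and without WT replicate 2 (0.09, adjusted p = 0.119). In this comparison 4 of the 4 genes passed, all higher in basal progenitor-like cells, beside 65.4% of 12943 genes, 32.1% higher in basal progenitor-like and 33.3% higher in radial glia-like cells. Of the genes tested, 99.2% had a log2 difference at or below that of Pou3f1 and 98.2% at or below that of Pou3f4.

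Among the 3 main named neuron classes, Pou3f1 was highest in LGE-like neurons, where the other 3 genes had their lowest means. The neuron classes are named by markers. MGE interneuron-like cells were named from Lhx6, Maf, Erbb4 and the like, and LGE-like cells from striatal genes such as Foxp1, Ebf1 and Meis2. The subpallial Nkx2-1 and Lhx8-like cells were named from genes such as Nkx2-1, Lhx8, Gbx1, Zic1 and Isl1. These levels are a description, and no test was run between neuron classes. Pou3f1 was at 620, 554, 738 and 596 CPM in 1233 LGE-like neurons. It was at 36.8, 31.1, 31.5 and 42.7 CPM in 2495 MGE interneuron-like neurons and at 39.3, 60.3, 57.5 and 73.0 CPM in 1688 subpallial Nkx2-1 and Lhx8-like neurons. The LGE-like neurons stood clear of every other class in all 4 libraries.

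Pou3f2 was highest in the subpallial Nkx2-1 and Lhx8-like neurons, at 548, 614, 551 and 510 CPM. MGE interneuron-like neurons held 163, 211, 114 and 147 CPM and LGE-like neurons 160, 164, 138 and 149 CPM, and these last classes overlapped. Pou3f3 was at 405, 522, 375 and 374 CPM in the subpallial class and at 341, 480, 359 and 374 CPM in MGE interneuron-like neurons, which overlapped as well. In LGE-like neurons it was at 204, 303, 207 and 176 CPM, lower than in the other 2 classes in every library. Pou3f4 was at 257, 186, 239 and 194 CPM in the subpallial class, at 195, 169, 170 and 176 CPM in MGE interneuron-like neurons and at 88.8, 69.1, 92.1 and 87.9 CPM in LGE-like neurons. The first 2 of these overlapped, and the LGE-like neurons lay below both in every library.

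Ordered over 7 named classes by mean CPM, Pou3f1 went from LGE-like neurons (627 ± 79.1 CPM, SD, n = 4) through oligodendrocyte precursor-like cells (178 ± 71.9), basal progenitor-like cells (118 ± 17.3), subpallial (57.5 ± 13.9), pallial-like (52.6 ± 50.8) and MGE interneuron-like neurons (35.5 ± 5.42) to radial glia-like cells (22.6 ± 5.10). The oligodendrocyte precursor-like and basal progenitor-like ranges overlapped, and so did the subpallial and pallial-like and the pallial-like and MGE interneuron-like ranges. For Pou3f2 the order ran from subpallial neurons (556 ± 43.4 CPM) through basal progenitor-like (366 ± 45.7) and radial glia-like cells (298 ± 45.2) to MGE interneuron-like (159 ± 40.1) and LGE-like neurons (153 ± 11.7), oligodendrocyte precursor-like cells (121 ± 43.3) and pallial-like neurons (80.2 ± 50.6). Here the gaps below the first and the third class were free of overlap. For Pou3f3 each neighbouring pair of classes overlapped, from 419 ± 70.4 CPM in subpallial to 113 ± 71.7 CPM in pallial-like neurons. For Pou3f4 subpallial (219 ± 34.3 CPM), basal progenitor-like (192 ± 21.5) and MGE interneuron-like cells (177 ± 12.2) overlapped with their neighbours and stood above LGE-like neurons (84.5 ± 10.4) and radial glia-like cells (58.1 ± 9.23). In the 60 pallial-like neurons Pou3f4 had 4 UMIs, all in null replicate 2.

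Unnamed clusters held 5445 of the 10921 neurons and 744 of the 7064 progenitors and have no place in these orders. The unnamed neurons were at 191 ± 29.4 CPM for Pou3f1, 247 ± 24.7 for Pou3f2, 379 ± 68.4 for Pou3f3 and 229 ± 28.4 for Pou3f4 (SD, n = 4), and their mean of Pou3f4 was above that of the subpallial class, within its spread. The unnamed progenitors were at 76.3 ± 25.3, 402 ± 53.3, 355 ± 98.3 and 91.3 ± 18.0 CPM for the 4 genes in the same order.

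The second clustering gave 40 clusters with at least 20 cells in a library, and each Pou3f gene reached its extremes in different ones. Pou3f1 was highest in neuron cluster 16 (978 ± 185 CPM over 3 libraries), led by Slc18a2, Meis2 and Six3 but also by the proliferation genes Top2a and Mki67, and therefore left unnamed. The LGE-like clusters 18 (791 ± 98.6 CPM), 15 (649 ± 55.7 CPM) and 6 (629 ± 91.0 CPM) followed. After these came the unnamed clusters 8 (431 ± 132 CPM), led by Peg10 and Pnoc, and 14 (377 ± 73.8 CPM), led by Dab1 and Gbx1. The LGE-like cluster 19, led by Pcp4 and Nefl, was below these, at 253, 190, 376 and 259 CPM. Its lowest level was in the radial glia-like cluster 13, at 17.7 ± 4.03 CPM.

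Pou3f2 was highest in the subpallial neuron clusters 12 (738 ± 33.8 CPM), led by Lypd6 and Pde1a, and 3 (599 ± 48.3 CPM), led by Shh and Lhx8. The remaining subpallial cluster, 13, led by Zic4, was lower, at 302 ± 66.7 CPM. Pou3f2 was lowest in the LGE-like cluster 15, at 49.9 ± 14.6 CPM. Pou3f3 had its highest levels in the unnamed neuron clusters 17 (530 ± 96.5 CPM) and 9 (526 ± 117 CPM) and in MGE interneuron-like cluster 4 (499 ± 52.7 CPM), which lay within each other's spread. Its lowest were in the LGE-like clusters 18 (57.6 ± 25.1 CPM) and 15 (81.3 ± 25.1 CPM). Pou3f4 was highest in neuron cluster 1 (365 ± 19.3 CPM), led by Nav2, Sox5 and Prox1 with the progenitor gene Vim among its leading genes, in progenitor cluster 15 (359 ± 37.2 CPM) and in neuron cluster 3 (344 ± 31.5 CPM). The other subpallial clusters, 12 and 13, were at 164 ± 28.8 and 87.6 ± 23.2 CPM, so that the subpallial class was not alike in this gene. Among clusters with several libraries Pou3f4 was lowest in LGE-like cluster 19, at 33.5 ± 23.2 CPM.

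LGE-like neurons were not alike in all 4 genes. In clusters 15 and 18 Pou3f2 and Pou3f3 were both at most 117 CPM in every library, whereas in cluster 6, led by Ebf1 and Isl1, Pou3f2 was at 208, 234, 196 and 237 CPM and Pou3f3 at 274, 423, 308 and 278 CPM. Pou3f4 differed in the other direction between clusters 6 and 15. It was at 54.0, 46.6, 57.8 and 35.7 CPM in cluster 6 and at 169, 148, 166 and 236 CPM in cluster 15, with no overlap. Cluster 19 had Pou3f2 at 82.2 to 107 CPM and Pou3f3 at 124 to 223 CPM, on average below cluster 6 and above clusters 15 and 18. Its Pou3f4 was at 9.74 to 58.9 CPM and overlapped that of cluster 6. Its cells were shallower, with a median of 3759.5 UMIs against 6497.5 to 7557 in the other LGE-like clusters.

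**Figure D2:**
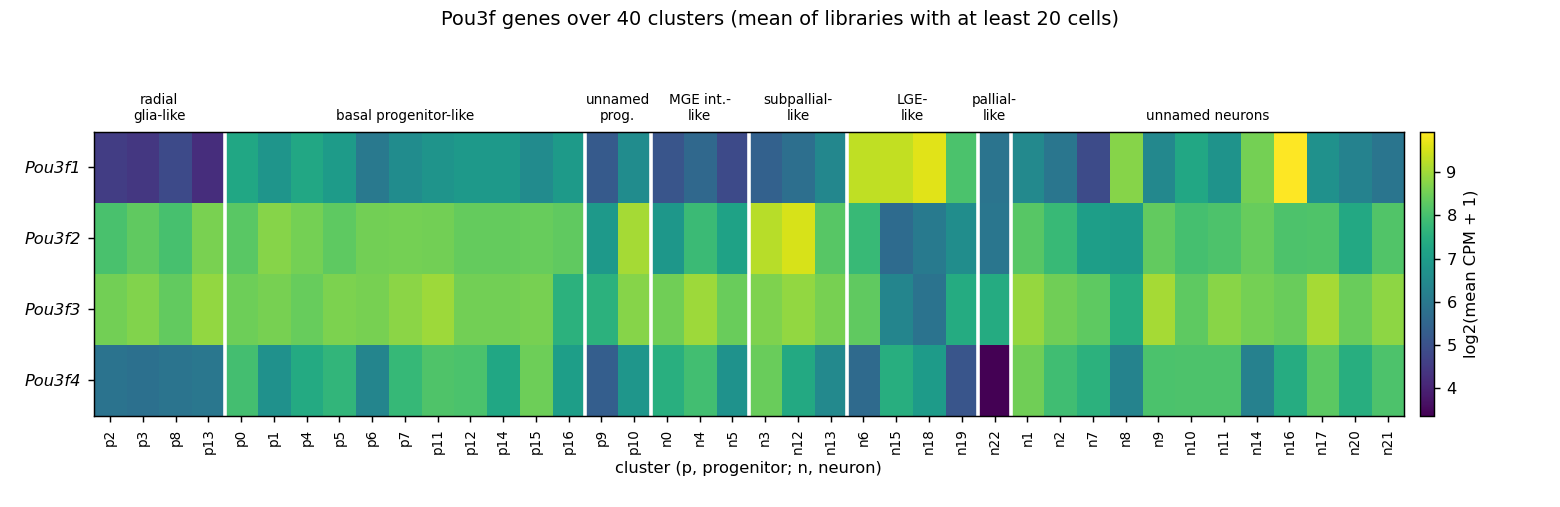
Mean level of each Pou3f gene (rows) in 40 clusters (columns, p for progenitor and n for neuron clusters, grouped by class with white lines), coloured as log2(CPM + 1) of the mean over libraries with at least 20 cells of the cluster. Pou3f1 is bright in the LGE-like clusters 6, 15 and 18 and in cluster 16 and dark in radial glia-like clusters, and Pou3f2 and Pou3f3 are dark in the LGE-like clusters 15 and 18.

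Over the clusters, Pou3f2 and Pou3f3 varied together, with a Pearson correlation of log2(CPM + 1) of 0.78 (Spearman 0.64) over 40 clusters, 0.80 over 23 neuron clusters and 0.67 over 17 progenitor clusters. Between Pou3f1 and Pou3f4 it was 0.81 among progenitors (Spearman 0.64, n = 17) and -0.24 among neurons (Spearman -0.23, n = 23). Between Pou3f1 and Pou3f3 among neurons it was -0.57, with a weaker Spearman correlation of -0.34. The clusters share libraries and are not independent, and these correlations are a description.

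**Figure D3:**
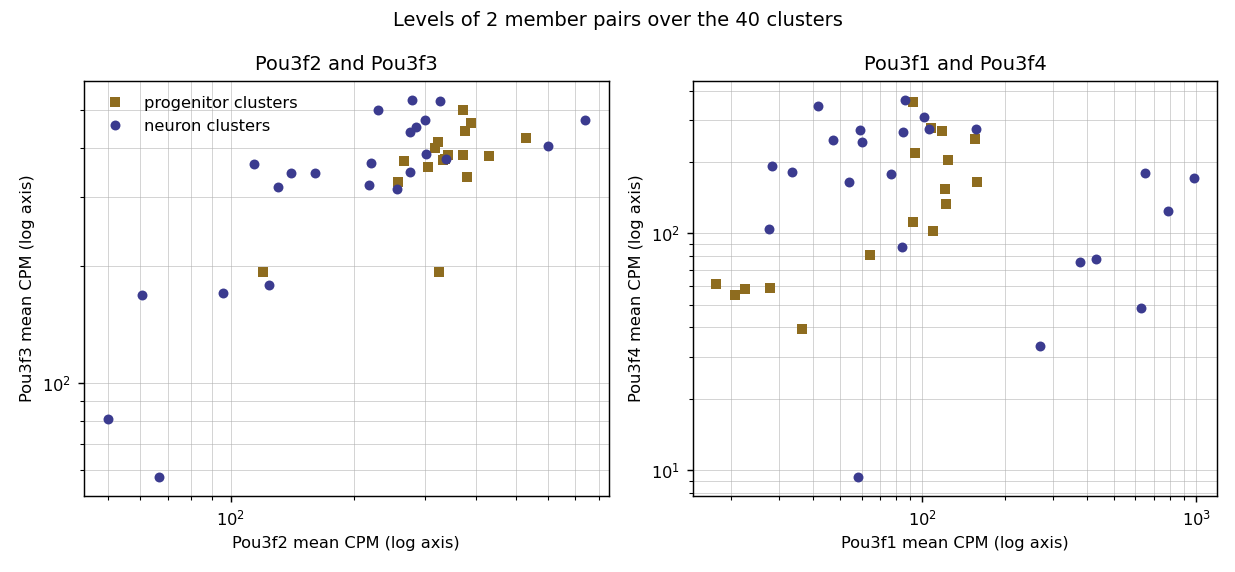
Mean CPM of Pou3f3 against Pou3f2 (left) and of Pou3f4 against Pou3f1 (right) on log axes, 1 point per cluster (brown squares 17 progenitor clusters, blue circles 23 neuron clusters). The left points form 1 rising band with the LGE-like clusters 15 and 18 at its low end, and on the right only the progenitor clusters rise together (correlation 0.81).

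The genes with the pattern most like each member were found by Pearson correlation of log2(CPM + 1) over the 40 clusters, among genes with a mean of at least 20 CPM. For Pou3f1 these were Ssbp3 (0.75), Zfhx3 (0.75), Zfp503 (0.71), Mn1 (0.70) and Stmn1 (0.70). For Pou3f2 they were Dcbld1 (0.76), Nrip1 (0.75), Mmgt2 (0.73), Lima1 (0.73) and Slc25a13 (0.72). For Pou3f3 they were Map3k20 (0.75), Qk (0.72), Homer3 (0.72), Tle3 (0.71) and Nono (0.70), and ranking by Spearman correlation left 0 of these 5 in place. For Pou3f4 they were 1810026B05Rik (0.84), Arl4d (0.83), Gm10762 (0.83), Pgm2 (0.82) and Dclk2 (0.81). By Spearman correlation 2, 4 and 3 of the 5 stayed for Pou3f1, Pou3f2 and Pou3f4.

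Over all progenitors and all neurons, though not in every class, most cells with any Pou3f UMI held more than 1 member. Each cell was thinned to 3000 UMIs so that shares could be compared across depths. In radial glia-like cells 5.39% ± 1.21 (SD, n = 4) then had a UMI of Pou3f1 and 15.6% ± 2.60 one of Pou3f4, against 25.04% ± 3.06 and 39.9% ± 1.80 of basal progenitor-like cells. Pou3f2 was detected in 56.4% ± 8.33 and 60.6% ± 5.91 of these cells, and Pou3f3 in 64.4% ± 7.36 and 64.7% ± 7.88. Pou3f1 was detected in 60.8% ± 5.67 of LGE-like neurons and in 8.63% ± 2.21 of MGE interneuron-like neurons. In erythroid-like cells, which should lack these genes, shares were 2.03%, 2.17%, 4.39% and 1.97% for Pou3f1 to Pou3f4, at median depths of 9932 to 13000 UMIs before thinning against 5476 to 8186 in neurons and 8302 to 12530 in progenitors. In microglia-like cells they were 3.46%, 10.8%, 15.7% and 8.64%, and single libraries reached 8.82% for Pou3f1 and 15.4% for Pou3f4. The shares of Pou3f1 in radial glia-like and MGE interneuron-like cells lay within that range or at its edge and are not told from background here, and that of Pou3f4 in radial glia-like cells was close to it. Droplets with under 100 UMIs, which hold free RNA, were at 85.0 to 94.7 CPM for Pou3f1, 143 to 172 for Pou3f2, 205 to 313 for Pou3f3 and 59.8 to 87.7 for Pou3f4. The levels of Pou3f1 in radial glia-like cells, MGE interneuron-like and subpallial neurons and of Pou3f3 in LGE-like and pallial-like neurons were below those of the droplets in every library, as was Pou3f4 in pallial-like neurons. That of Pou3f4 in radial glia-like cells was below them in 3 of 4 libraries, as was that of Pou3f2 in pallial-like neurons. Over all progenitors Pou3f1 was below the droplets in null replicate 2 and WT replicate 1. Pou3f2 in MGE interneuron-like and in LGE-like neurons was below them in null replicate 1 and WT replicate 1. Without thinning Pou3f1 was detected in 37.7% and Pou3f3 in 89.8% of progenitors, against 18.7% and 63.3% after it.

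A UMI of at least 2 members was found in 60.6%, 65.3%, 52.2% and 55.3% of thinned progenitors and in 55.4%, 54.7%, 53.8% and 53.2% of neurons. Radial glia-like cells held at least 2 members in 46.6%, 58.7%, 40.1% and 42.8% of cells and basal progenitor-like cells in 67.5%, 73.1%, 59.6% and 63.2%, higher in each library. The share of cells with both members of a pair was divided by the product of their single shares. In all neurons and all progenitors the medians of this ratio over libraries ran from 0.867 (Pou3f1 with Pou3f4 in neurons) to 1.29 (the same pair in progenitors, 1.22 to 1.56 over the libraries). In LGE-like neurons it was 1.28 for Pou3f2 with Pou3f3 (1.23 to 1.41) and 0.817 for Pou3f3 with Pou3f4 (0.779 to 0.861). For Pou3f1 with Pou3f4 it was 1.10 in basal progenitor-like cells (1.05 to 1.255), 1.20 in radial glia-like cells (0.304 to 1.74) and 1.75 in unnamed progenitors (1.175 to 2.64), the last from 5 to 19 cells with both in a library.

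Null and WT libraries differed in none of the 4 genes beyond the spread between pools. In neurons the log2 difference of null over WT was -0.19 for Pou3f1 (95% interval -0.50 to 0.13, adjusted p = 0.515), -0.13 for Pou3f2 (-0.40 to 0.15, adjusted p = 0.616), 0.09 for Pou3f3 (-0.23 to 0.41, adjusted p = 0.770) and -0.16 for Pou3f4 (-0.53 to 0.21, adjusted p = 0.649), by edgeR's quasi-likelihood test over 2 against 2 libraries. In neurons 0 of the 4 genes passed by edgeR, beside 0.073% of 13690 genes, or 10. At an unadjusted p under 0.05 there were 0 of the 4, beside 16.9% of all genes, and by DESeq2 0 of the 4, beside 1.78%. In progenitors the differences were -0.26 for Pou3f1 (-0.68 to 0.16, adjusted p = 0.498), 0.04 for Pou3f2 (-0.23 to 0.31, adjusted p = 0.878), 0.22 for Pou3f3 (-0.08 to 0.52, adjusted p = 0.421) and -0.16 for Pou3f4 (-0.54 to 0.21, adjusted p = 0.629), by the same edgeR test. Here too 0 of the 4 passed by edgeR, beside 0.0815% of 13503 genes, or 11. Unadjusted there were 0 of the 4, beside 17.1% of all genes, and by DESeq2 0 of the 4, beside 1.94%. These intervals do not show that the levels were equal.

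The null libraries also differed from each other. Pou3f3 was higher in null replicate 2 than in the other 3 libraries in progenitors and in neurons, and Pou3f4 was lower there than in the other 3 in both. With null replicate 2 as the only null library, Pou3f3 was higher than in WT by 0.27 in neurons and by 0.36 in progenitors, and Pou3f4 differed by -0.42 in both. Pou3f1 then differed by -0.57 in progenitors. These edgeR fits take the lone library to vary like the WT pair, so only the sizes are given. With null replicate 1 as the only null library, Pou3f3 was at -0.08 and 0.07 in neurons and progenitors and Pou3f4 at 0.08 and 0.06. Pou3f1 was then at -0.13 and -0.00132 and Pou3f2 at -0.13 and -0.0208. A scaling by library totals in place of TMM moved the median of all genes by 0.15 in neurons and 0.19 in progenitors towards null. Pou3f2 in neurons then turned from -0.13 to 0.02 and Pou3f4 in progenitors from -0.16 to 0.02, both below the shift of the median.

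**Figure D4:**
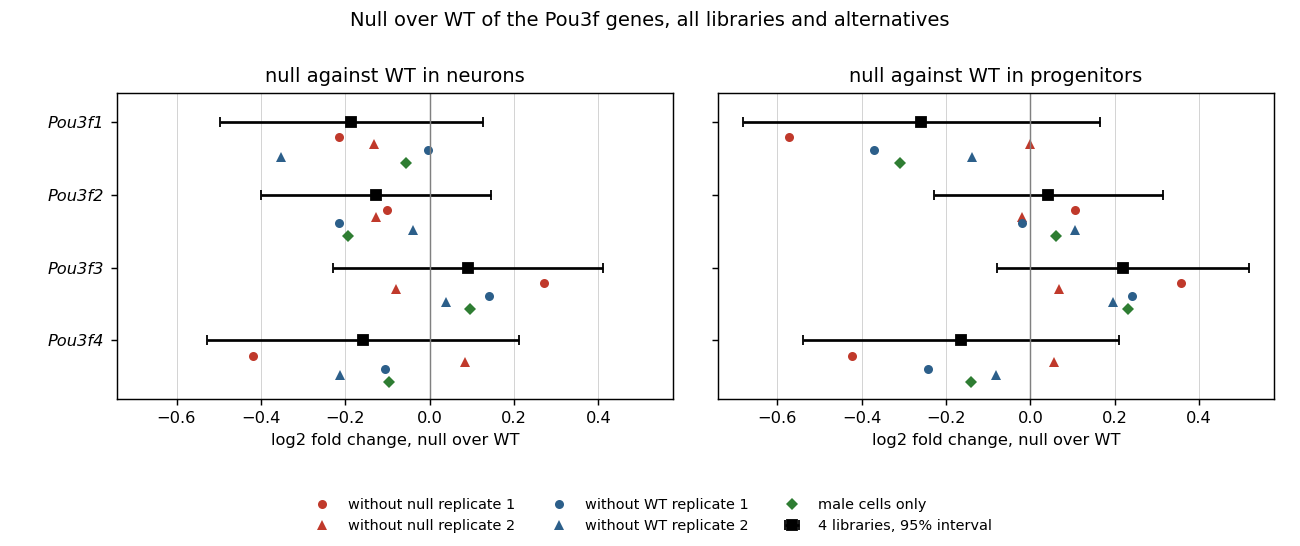
Log2 fold change of null over WT (horizontal axis) for each Pou3f gene in neurons (left) and progenitors (right), with the value and 95% interval over 4 libraries as black squares and bars and, below each, the value without 1 library (red without a null, blue without a WT library) and in male cells only (green diamonds). All 8 intervals cross 0, and Pou3f4 changes sign without null replicate 2 in both classes.

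Pou3f4 is X-linked, and the pools differed in sex. Male and female cells of the same library were therefore set side by side. In progenitors of null replicate 1 Pou3f4 was at 162 CPM in both female and male cells, and in null replicate 2 at 127 CPM in female and 131 CPM in male cells, with overlapping 95% Poisson intervals. In neurons it was at 242 and 215 CPM in female and male cells of null replicate 1 and at 166 and 184 CPM in those of null replicate 2, so that the order of the sexes differed between the libraries. Pou3f3 was at 508 and 522 CPM in female and male progenitors of null replicate 2 and at 467 and 451 CPM in its neurons. St18 was at 62.3 CPM in these female and 17.1 CPM in these male progenitors. Any part of sex or of St18 in the level of Pou3f3 was not tested. In male cells only, null over WT was 0.10 for Pou3f3 and -0.10 for Pou3f4 in neurons and 0.23 and -0.14 in progenitors. By edgeR 0 of the 4 genes passed in either class. Of all genes 1 passed in neurons and 0 in progenitors, so nothing is read from that count.

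**Figure D5:**
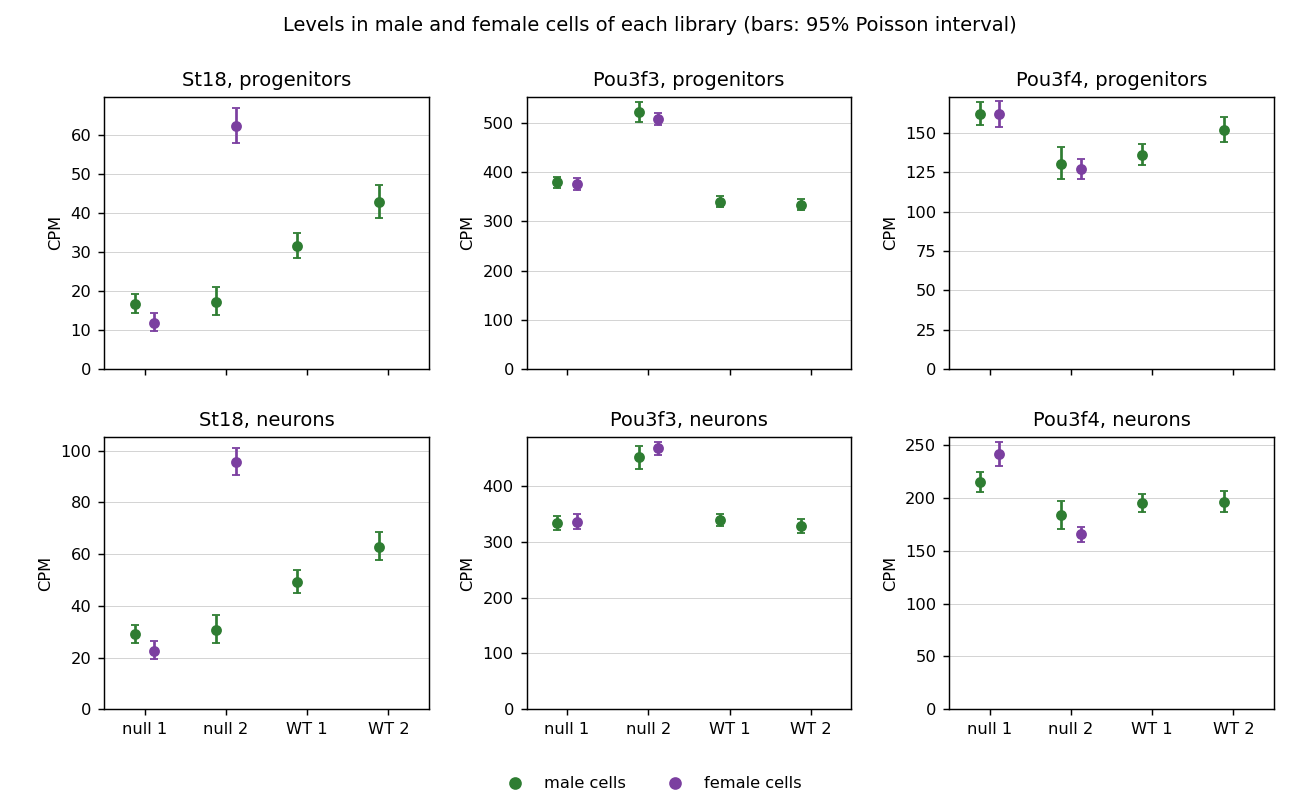
CPM (vertical axes, from 0) of St18, Pou3f3 and Pou3f4 in male (green) and female (purple) cells of each library, progenitors above and neurons below, with 95% Poisson intervals that cover counting error only. St18 in null replicate 2 is at 62.3 CPM in female and 17.1 CPM in male progenitors, while Pou3f3 is high in both; the WT libraries hold male cells only.

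The difference of null against WT between neurons and progenitors passed for 0 of the 4 genes by edgeR and 0 by DESeq2, beside 0.746% of 14334 genes. Pou3f2 came closest, with a difference of -0.13 (SE 0.061, unadjusted p = 0.0352, adjusted p = 0.539 by edgeR), the 1 gene under an unadjusted 0.05. For Pou3f1 it was 0.12 (adjusted p = 0.832), but without WT replicate 1 it was 0.40, while without null replicate 2 and without WT replicate 2 it was -0.15 and -0.16. Each of these fits left 1 library in a genotype, so only the sizes are given.

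MGE interneuron-like neurons of null replicate 2 lay mostly in another cluster than those of the other libraries: 328 and 218 of the WT cells were in cluster 0, as were 483 cells of null replicate 1, but 71 of null replicate 2, which had 373 cells in cluster 4. The neuron classes also differed in size between the genotypes. MGE interneuron-like cells numbered 934 and 713 of 3622 and 2253 neurons in null, against 522 and 326 of 2668 and 2378 in WT. Subpallial cells numbered 499 and 269 in null against 421 and 499 in WT. Null over WT in all neurons sums over these classes, so composition and level both enter it. With equal numbers of cells of each cluster in every library, Pou3f2 in neurons was at 0.08 in place of -0.13. In neurons 0 of the 4 genes then passed, beside 6 of all genes.

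Other POU genes were followed beside the family. Of 12 listed, 7 were tested between progenitors and neurons, 5 were higher in neurons and 1 in progenitors by edgeR, beside the 80.1% of all genes that passed. Pou2f2, an octamer factor of class II, rose by 1.59 on the log2 scale and Pou6f1 by 0.76, and Pou2f1 fell by 0.14. Pou2f2 (1.26) and Pou6f1 (1.16) were also the 2 of 7 that were higher in basal progenitor-like than in radial glia-like cells, where 65.4% of all genes passed. Between null and WT 0 of 7 passed by edgeR in neurons, with 5 at an unadjusted p under 0.05, and 0 of 7 in progenitors, with 2. Of all genes 0.073% and 0.0815% passed by edgeR, and 16.9% and 17.1% had such an unadjusted p. DESeq2 called 1 of the 7 in each class, Pou5f1, the pluripotency factor Oct4, as higher in null, and 1.78% of all genes in neurons and 1.94% in progenitors. It was at 3.22, 3.28, 1.17 and 0.440 CPM in neurons, no more than 75 UMIs in any library, and its log2 difference by edgeR was 1.82 (adjusted p = 0.0901) there and 1.92 (adjusted p = 0.123) in progenitors. Without null replicate 2 only 1 null library remained, so no list counts are given for that fit, here or for the lists below.

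Partners and reported targets of class III POU factors were all tested. Of the 12, 6 were higher in neurons and 6 in progenitors, where 40.6% and 39.5% of all genes were. Sox2, the progenitor factor that pairs with POU proteins, fell in neurons by 0.43, while the neuronal factor Myt1l rose by 3.46 and Cdk5r1, an activator of the neuronal kinase Cdk5, by 1.57. Nes, a progenitor filament with a POU-bound enhancer, fell by 2.56 and Fabp7, a radial glial lipid carrier, by 3.10. Between the progenitor stages 8 were higher and 3 lower in basal progenitor-like cells, beside 32.1% and 33.3% of all genes. Those higher included Myt1 (3.15), St18 (4.42) and the Notch ligand Dll1 (1.20), and the 3 lower were Dab1 (-2.82), an adaptor of Reelin signalling, Fabp7 (-3.61) and Nes (-1.93). Sox2 was at 0.07 and did not pass. Between null and WT 0 of 12 passed by edgeR in either class, with 3 at an unadjusted p under 0.05 in each, and 0 by DESeq2. Of all genes in neurons and progenitors, 0.073% and 0.0815% passed by edgeR and 1.78% and 1.94% by DESeq2. An unadjusted p under 0.05 was found for 16.9% and 17.1%. For Dab1 the difference of null against WT differed between neurons and progenitors (-0.64, adjusted p = 0.00866 by edgeR). It was the 1 of 12 that passed, beside 0.746% of all genes, while DESeq2 called 0 of 12, beside 0.167%.

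Genes that start within 100 kb of a Pou3f gene did not all go with it. While Pou3f1 rose in neurons, its neighbours Utp11 (-0.50), Fhl3 (-2.90), Sf3a3 (-0.71) and Inpp5b (-0.32) fell by edgeR. Pantr1, a noncoding RNA that starts 926 bases from Pou3f3 on the other strand, was at 648, 571, 702 and 681 CPM in progenitors and at 411, 346, 483 and 464 CPM in neurons, and fell by 0.68 in neurons (adjusted p = 9.51e-13 by edgeR). Over clusters its correlation with Pou3f3 was 0.65. Null replicate 2 was the lowest library for Pantr1 and the highest for Pou3f3 in both classes. Pantr2, 17686 bases from the start of Pou3f3, fell by 1.62 in neurons. Gm30731, 2182 bases from Pou3f2 on the other strand, fell by 1.39, and Gm44593, 1956 bases from Pou3f4, rose by 0.81. Of 13 such genes in the files 9 were tested, and 2 were higher in neurons and 7 in progenitors, beside 40.6% and 39.5% of all genes. Between null and WT 0 of the 8 tested in neurons and 0 of the 9 in progenitors passed by edgeR, with 3 and 2 at an unadjusted p under 0.05 and 0 in both by DESeq2. Beside these, 0.073% and 0.0815% of all genes passed by edgeR and 1.78% and 1.94% by DESeq2. An unadjusted p under 0.05 was found for 16.9% and 17.1% of all genes.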

How the data were processed

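Counts of UMIs per gene and barcode had been deposited by the authors for each library as unfiltered 10x matrices, neither normalized nor restricted to cells. Per the file headers they were written by Cell Ranger 4, while the submitters' processing notes name Cell Ranger 5.0.1 and the build GRCm38. Of the gene identifiers, 99.8% were matched to GENCODE M21. Total UMIs per library ran from 70991150 to 92984713. All comparisons between progenitors and neurons, between progenitor stages and between null and WT used raw counts summed per library and class.

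Cells were kept from 3000 UMIs and 200 genes upwards, with mitochondrial UMIs up to 10%. Scrublet (scanpy 1.11.5, 30 principal components) called at most 0.0443% of the cells of a library by its own threshold, so the highest scores were left out at 0.8% per 1000 cells, 120 to 352 per library. Clustering used Seurat 5.3.0 in R 4.3.3 with 2000 variable genes, 49 principal components and Louvain resolution 1.4, first over all cells and then within neurons and progenitors. The Pou3f genes and the 13 neighbours in the files were kept out of the variable genes. Clusters were named from at least 3 markers, and 4 neuron and 1 progenitor clusters with markers of the other class ahead stayed unnamed but were kept. The tests were edgeR 4.0.16 (TMM, filterByExpr, quasi-likelihood F-test, two-sided, Benjamini-Hochberg over all genes, threshold 0.05), with DESeq2 1.42.0 as an alternative. The edgeR fits were also run on simulated counts with a fixed spread and no library effect, which cannot check the spread between these pools. Other alternatives changed the scaling, the filter on low counts, the UMI minimum, doublets, clustering resolution, library term, mixed clusters, neurons of other origin, sex of cells, cluster composition and the libraries used. Single values have exact Poisson intervals at 95%, which cover counting error only, and thinning drew 3000 UMIs per cell. The named genes were the 4 members, 12 other POU genes, 12 partners and targets, genes starting within 100 kb, the 5 genes most like each member, and Xist with Y-linked genes for sex. The values of 1 of the partners and targets are not reported here. The members and lists were chosen with earlier results of these data known. Replicate numbers follow the order of the samples. Figures were drawn with matplotlib 3.10.9, and the remaining steps ran under Python 3.11.15 (pandas 2.3.3, scipy 1.17.1, numpy 2.4.6).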

Additional observations from a re-analysis of the deposited data

Results flagged for a closer look

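Cells outside the progenitor and neuron classes also held Pou3f UMIs, above the 3 counts that a count of 0 allows. In 33 oligodendrocyte precursor-like cells the pooled levels were 198, 111, 283 and 51.5 CPM for Pou3f1 to Pou3f4. In 96 microglia-like cells they were 7.62, 23.6, 51.1 and 26.7 CPM, and in 153 erythroid-like cells 5.07, 6.76, 14.6 and 4.51 CPM. All levels in these last cell types were below those of droplets with under 100 UMIs and are not told from free RNA here. Pou3f2 and Pou3f4 in oligodendrocyte precursor-like cells were also below the droplets, and Pou3f3 lay within their range. Per-library differences of the 4 genes between neurons and progenitors and between the progenitor stages held no library that stood apart from the other 3 by Dixon's criterion, in 8 sets of 4.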

How the results depend on the processing

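Between progenitors and neurons, and between the progenitor stages, Pou3f1, Pou3f2 and Pou3f4 kept their direction and passed the threshold under all alternatives run. Pou3f3 did so in part. Its difference between neurons and progenitors missed the threshold without neurons of other origin (-0.0261) and without the library term (-0.13), and that between the progenitor stages with library totals alone (0.0170) and without the library term (0.0857). When 1 library was left out the latter was 0.0865 to 0.132, and it passed only without null replicate 1 (0.132). The cause was not tested for these or the values below.

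For null over WT in neurons, leaving out 1 library gave -0.352 to -0.00443 for Pou3f1, -0.216 to -0.0392 for Pou3f2, -0.0810 to 0.27 for Pou3f3 and -0.42 to 0.0844 for Pou3f4, and in progenitors -0.57 to -0.00132 for Pou3f1, -0.0208 to 0.11 for Pou3f2, 0.0689 to 0.36 for Pou3f3 and -0.42 to 0.0553 for Pou3f4. Pou3f2 in neurons turned to 0.0218 with library totals and 0.0841 with equal cells per cluster, and Pou3f4 in progenitors to 0.0192 with library totals. For the difference between the classes, leaving out 1 library gave -0.16 to 0.40 for Pou3f1, -0.264 to -0.0985 for Pou3f2, -0.174 to -0.0805 for Pou3f3 and -0.0881 to 0.16 for Pou3f4. Pou3f1 turned to -0.23 without neurons of other origin. Pou3f2 turned to 0.10 with equal cells per cluster. Pou3f4 turned to -0.00053 with RLE size factors, -0.0145 with equal cells per cluster, -0.0410 with library totals, -0.0443 without mixed and transitional clusters (chosen after seeing the data), -0.0643 without mixed clusters, -0.0040 without neurons of other origin and -0.0652 with no filter on low counts.

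Counts of genes past the threshold moved more. In neurons 10 genes became 244 by DESeq2, 393 with library totals, 697 with no filter, 63 without mixed and transitional clusters, 6 with equal cells, 1 in male cells and 45 to 3131 when 1 library was left out (the highest without null replicate 1). In progenitors 11 became 262, 397 and 795 by the first 3, 91 with RLE size factors, 63 with equal cells, 2 at resolution 0.8, 0 in male cells and 49 to 4272 when 1 library was left out (the highest without null replicate 1). With library totals 306 of the 393 genes in neurons and 302 of the 397 in progenitors were higher in null, against 4 of 10 and 2 of 11. For the difference between the classes 107 became 24 by DESeq2, 49 with RLE size factors, 53 with library totals, 23 in male cells, 27 without mixed clusters, 37 without mixed and transitional clusters, 27 without neurons of other origin, 67 with more doublets left out and 42 to 175 when 1 library was left out.

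Shares of cells with a UMI follow depth. Unthinned, Pou3f1 to Pou3f4 were in 37.7%, 85.2%, 89.8% and 60.5% of progenitors and 31.6%, 58.7%, 78.4% and 56.3% of neurons, and thinned to 5000 UMIs in 26.6%, 74.7%, 80.3% and 45.1% of progenitors and 29.8%, 55.7%, 74.6% and 51.2% of neurons. With 2 libraries per genotype and St18 in neurons higher in 1 null library than in both WT libraries, small differences between null and WT could not be resolved. No pairing of null with WT libraries was possible because the labels carry no replicate numbers.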
